A study of Mus musculus with 6 samples.

Results

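The genes described here build and load major histocompatibility complex (MHC) class I, the surface complex that shows peptides from inside a cell to CD8 T cells. They are the heavy chain genes H2-K1, H2-D1, H2-M3 and H2-T23, the light chain gene B2m, and the peptide loading genes Tap1, Tap2, Tapbp, Tapbpl and Erap1. Every probe set that the array annotation assigned to exactly 1 of these symbols was taken and is shown on its own, which gave 26 of the 22690 probe sets, from 9 of the 10 genes (the table names 12393 genes in all). H2-T23 had no probe set of its own, and 5 probe sets that name a listed gene together with another gene were not taken. RNA was measured in 6 tumours, 3 labelled Control and 3 labelled Bptf KD, each on an Affymetrix array of its own.

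All 6 started from 4T1, a line of mouse mammary carcinoma cells of the BALB/c strain. Control or Bptf KD cells, 10000 per injection, went into the fourth mammary gland fat pad, and tumours were taken after 21 days. The hosts were NSG mice, written Ifrg2r -/- in the labels, a strain without mature T, B or natural killer cells. In the Bptf KD cells, Bptf had been knocked down by short hairpin RNAs carried by the retrovirus MMLV. Bptf encodes the large subunit of the chromatin remodeller NURF, and the series asks whether tumours depleted of it are better seen by CD8 T cells. What the control cells carried, the age of the mice, the number of mice and whether the cells were clonal are not stated in these sources.

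A class I molecule is a heavy chain bound to beta-2-microglobulin, the product of B2m, and to a short peptide. H2-K1 and H2-D1 encode the classical heavy chains, which are highly polymorphic between strains and very similar in sequence to each other, while H2-M3 and H2-T23 encode non-classical chains that present a narrow set of peptides. Proteasomes cut proteins into peptides, the Tap1 and Tap2 proteins pump these into the endoplasmic reticulum, Tapbp (tapasin) holds an empty class I molecule next to the pump, Tapbpl acts as a second peptide editor, and Erap1 trims peptides to length. Interferon gamma raises most of these genes through factors that bind their promoters. Stromal cells of the host make class I as well. BALB/c tumour cells and the NOD-derived NSG host carry different alleles at H2-D1, and a level in a whole tumour is the sum over both sources.

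The promoters of 5 of the genes are shown because they carry the elements through which class I genes are known to be controlled together. Each line gives 170 bases that end just before the annotated start site, read 5′ to 3′ on the strand of the gene, from RefSeq on the build GRCm38.p6. Capitals mark exact matches, on either strand, to 4 motif cores: GAAANNGAAA for the interferon-stimulated response element, GGGNNNNNCC for the NF-kappa-B site, TGACG for the X2 box and CCAAT for the Y box, which reads ATTGG on the opposite strand. Motifs can overlap, and capitals then run together.
B2m: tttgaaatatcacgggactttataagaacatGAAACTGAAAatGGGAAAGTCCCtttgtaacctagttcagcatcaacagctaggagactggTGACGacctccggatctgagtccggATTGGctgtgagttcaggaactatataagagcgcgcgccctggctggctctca
H2-K1: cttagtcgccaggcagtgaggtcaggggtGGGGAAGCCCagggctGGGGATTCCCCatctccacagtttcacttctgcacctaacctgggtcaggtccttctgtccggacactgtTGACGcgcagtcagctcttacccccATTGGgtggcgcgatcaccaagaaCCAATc
H2-D1: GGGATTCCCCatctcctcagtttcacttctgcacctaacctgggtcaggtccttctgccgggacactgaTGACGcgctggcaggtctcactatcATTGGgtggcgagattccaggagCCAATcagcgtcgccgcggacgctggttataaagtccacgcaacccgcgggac
H2-M3: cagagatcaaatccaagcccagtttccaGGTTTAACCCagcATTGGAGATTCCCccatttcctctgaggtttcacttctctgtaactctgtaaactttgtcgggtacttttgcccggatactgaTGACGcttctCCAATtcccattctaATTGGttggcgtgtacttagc
Tap1: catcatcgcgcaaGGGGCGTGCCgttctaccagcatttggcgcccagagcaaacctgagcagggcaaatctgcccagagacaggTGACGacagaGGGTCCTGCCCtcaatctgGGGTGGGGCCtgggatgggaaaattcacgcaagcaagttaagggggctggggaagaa
The windows lie at chr2:122147517-122147686 (+ strand) for B2m, chr17:34000334-34000503 (- strand) for H2-K1, chr17:35262924-35263093 (+ strand) for H2-D1, chr17:37270064-37270233 (+ strand) for H2-M3 and chr17:34187386-34187555 (+ strand) for Tap1.

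In B2m, H2-K1, H2-D1 and H2-M3 the X2 core was followed, 20 bases further on, by a Y core in the reverse direction. That spacing, noticed after the matches were seen, occurred in 31 of 32851 RefSeq promoter windows of 300 bases (0.0944%). The listed genes had a window in 8 of 10 cases. Taken singly, the X2 core lay in the windows of B2m, H2-K1, H2-D1, H2-M3 and Tap1 and in 20.8% of all windows, and the Y core in 7 of the 8 genes and in 37.4% of all windows. The NF-kappa-B core lay in the same 5 genes as the X2 core, and in 50.8% of all windows. The core of the interferon-stimulated response element lay in B2m, H2-T23 and Erap1, against 3.44% of all windows, and that of the gamma-activated site, TTCNNNGAA, in H2-M3 alone, against 8.30%. A match describes letters only, and an exact search misses variants of these elements. A window without a match may therefore still hold the element. H2-K1 and H2-D1 shared a run of 47 identical bases upstream of their start sites. The start sites of Tap1 and of the immunoproteasome gene Psmb9 lay 225 bases apart and faced away from each other, so both genes share the stretch between them.

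**Figure D1:**
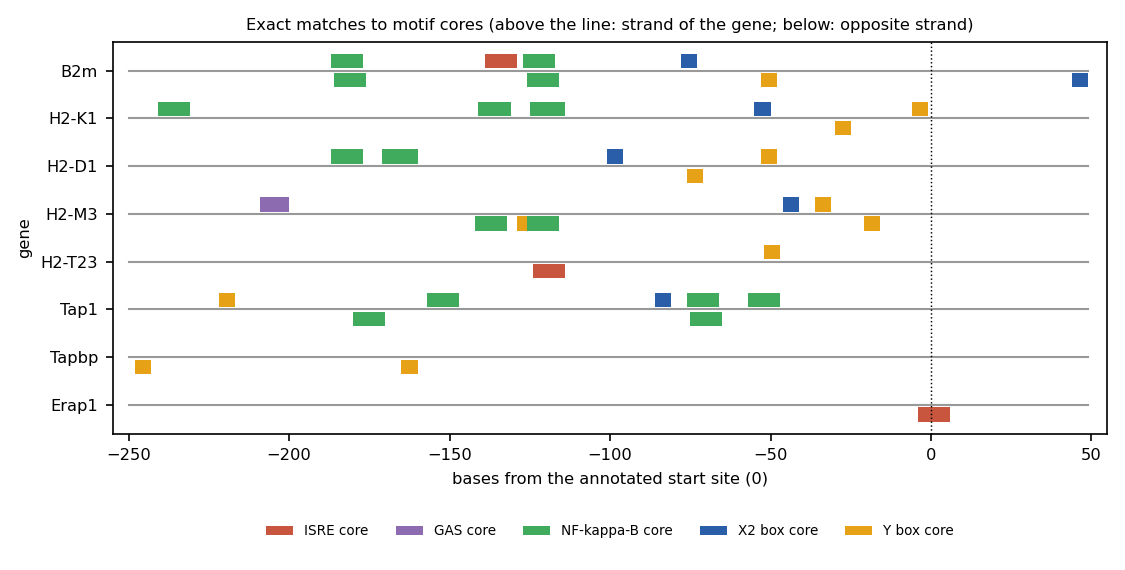
Positions of exact matches to 5 motif cores in the windows of 8 genes, from 250 bases before to 50 after the annotated start site (x axis, in bases). The X2 core (blue) and the reversed Y core (yellow, below the line) stand 20 bases apart in B2m, H2-K1, H2-D1 and H2-M3.

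The arrays as a whole bear on these genes in several ways. Levels are log2 values made with RMA, array medians lay between 7.59 and 7.69, and the number of arrays limits the precision. The brightest Bptf probe set read 10.69, 9.77 and 10.59 in controls 1, 2 and 3 and 9.60, 9.56 and 9.99 in Bptf KD tumours 1, 2 and 3. Its difference, Bptf KD minus control, was -0.63 (SE 0.27, limma adjusted p = 0.398). On the other 3 probe sets control 2 lay below every Bptf KD tumour, so it went against its label and is called the tumour labelled Control 2. That tumour also stood apart in skeletal muscle markers (mean of 10 genes 11.9, against 6.10 to 9.57 in the other 5 tumours) and keratinocyte markers (mean of 8 genes 9.52, against 5.92 to 6.13). The 3-prime minus 5-prime signal of beta-actin, a sign of RNA breakdown, was 1.23 there and 0.76 to 1.05 elsewhere. That of Gapdh hardly set the tumour apart, at 0.06 there and -0.08 to 0.04 elsewhere. Of 10 epithelial markers, which a mammary carcinoma should express, all 10 lay above 6.09, the dim level used as a filter.

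Class I genes read slightly higher in Bptf KD than in control tumours, by differences that no single probe set carried past the threshold. Of the 26 probe sets, 22 were above the dim level and were tested, and each of the 9 genes kept at least 1. Their differences ran from -0.08 to 0.68, with a median of 0.27, beside a median of 0.05 over all 15838 probe sets tested. Limma called 0 of the 22 at an adjusted p under 0.05 (adjusted p of 0.228 at the lowest), where 0.253% of all probe sets tested were called. At an unadjusted p under 0.05, 7 of the 22 were higher (31.8%) and 0 lower, against 7.27% and 5.32% of all probe sets. That count of 7 fell to 1 without control 3 or without Bptf KD 1 and to 3 without Bptf KD 3, where 4.10%, 5.03% and 3.97% of all probe sets were higher. In 8 of the 22 (36.4%), all 3 Bptf KD tumours lay above all 3 controls, against 11.6% of all probe sets, and in 0 of the 22 below them, against 7.72%. Probe sets of 1 gene share its RNA and are not independent, so these shares describe the genes and are no test of them. The 8 came from 5 genes: 3 from H2-D1, 2 from H2-K1 and 1 each from H2-M3, Tap1 and Tapbpl. An exact two-sided permutation test gave p = 0.1 for each of the 8, the smallest it can give with 3 tumours against 3.

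**Figure D2:**
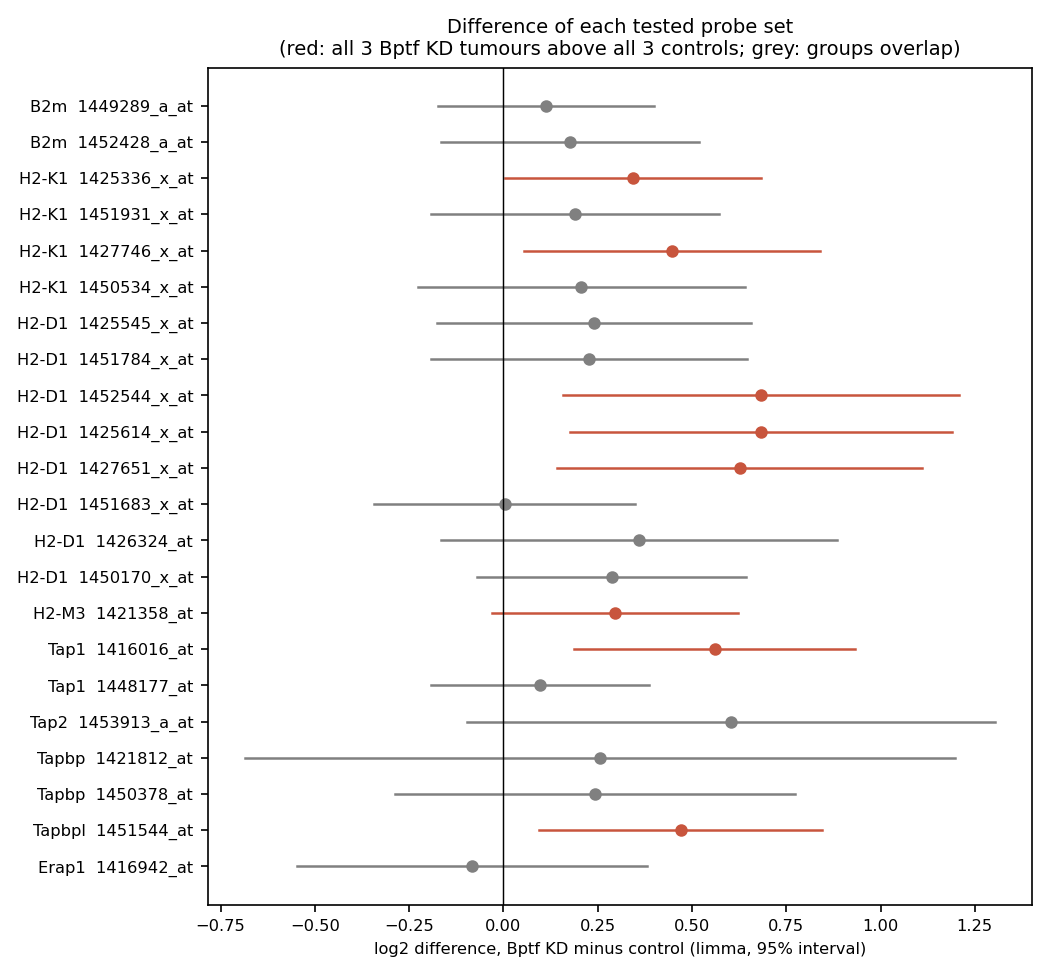
Difference of each of the 22 tested probe sets, Bptf KD minus control on the log2 scale (x axis), with its 95% interval from limma, by gene and probe set (y axis). Points in red are the 8 probe sets whose groups did not overlap, and the intervals of 7 of them lie above 0, before any adjustment.

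B2m, the light chain shared by all these molecules, differed little between the groups. Probe set 1449289_a_at read 14.55, 14.30 and 14.39 in controls 1, 2 and 3 and 14.50, 14.62 and 14.46 in the Bptf KD tumours. The groups overlapped, since control 1 lay above Bptf KD 1 and 3. The difference was 0.11 (95% interval -0.17 to 0.40; limma adjusted p = 0.776). The other probe set, 1452428_a_at, ran in parallel, with controls at 14.42, 14.03 and 14.14 and Bptf KD tumours at 14.35, 14.50 and 14.27. Its difference was 0.18 (limma adjusted p = 0.695). Without the tumour labelled Control 2 the differences of the B2m probe sets were 0.06 and 0.09.

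H2-K1, the first classical heavy chain, had 4 probe sets that fell into unlike patterns. The brightest, 1425336_x_at, read 13.83, 13.51 and 13.40 in the controls and 13.92, 13.97 and 13.88 in the Bptf KD tumours. All Bptf KD tumours were higher than all controls, and control 1 came within 0.05 of the lowest of them. The difference of 0.34 (95% interval 0.00 to 0.68) is a 1.27-fold higher level, with an adjusted p of 0.391 in limma. Probe set 1427746_x_at gave controls of 12.68, 12.38 and 12.14 and Bptf KD levels of 12.91, 12.92 and 12.71, again without overlap. Its difference was 0.45 (95% interval 0.05 to 0.84; limma adjusted p = 0.345). On the dimmer 1450534_x_at control 3 alone stood low, at 8.21 beside 8.75 and 8.73 in the other controls, and the Bptf KD tumours read 8.72, 8.94 and 8.65. The difference there was 0.21, and 0.03 without control 3. The fourth, 1451931_x_at, read 13.17, 12.73 and 12.95 in the controls and 13.17, 12.95 and 13.30 in the Bptf KD tumours. There the groups overlapped, with a difference of 0.19 that became 0.08 without the tumour labelled Control 2.

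H2-D1, the second classical heavy chain, had 9 probe sets, the most of any of the genes, and their differences spanned the widest range. In 3 of them the groups did not overlap. Probe set 1452544_x_at read 12.59, 11.75 and 12.08 in the controls and 12.86, 12.68 and 12.93 in the Bptf KD tumours. Control 1 lay closer to the Bptf KD tumours than to the other controls. The difference was 0.68 (95% interval 0.16 to 1.21), or 1.61-fold, with an adjusted p of 0.286 in limma. Probe set 1425614_x_at gave 12.39, 11.61 and 11.81 against 12.70, 12.49 and 12.67, also a difference of 0.68. Probe set 1427651_x_at gave 12.37, 11.65 and 11.81 against 12.63, 12.43 and 12.65, a difference of 0.63. These 3 probe sets had the same order of tumours within the controls, with 1 highest and 2 lowest.

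The 2 brightest H2-D1 probe sets showed a smaller difference. Probe set 1425545_x_at read 13.27, 12.76 and 13.00 in the controls and 13.28, 13.04 and 13.43 in the Bptf KD tumours, and 1451784_x_at stayed within 0.03 of it in every tumour. Bptf KD 2 lay below control 1 on both, and the differences were 0.24 and 0.23 (limma adjusted p = 0.653 and 0.679). They became 0.12 and 0.10 without the tumour labelled Control 2. Probe set 1426324_at followed the same order of tumours and read 9.43, 8.84 and 8.96 against 9.49, 9.10 and 9.72. Probe set 1451683_x_at barely differed between the groups, with 11.55, 11.31 and 11.37 against 11.52, 11.18 and 11.54, and a difference of 0.0033 whose sign turned under several other settings. Its 95% interval, -0.34 to 0.35, overlaps those of the 2 highest probe sets, 0.16 to 1.21 and 0.18 to 1.19. Whether they differ was not tested. The dim 1450170_x_at differed by 0.29, and 1451934_at, at 4.13 to 4.30, lay below the dim level and was not tested.

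**Figure D3:**
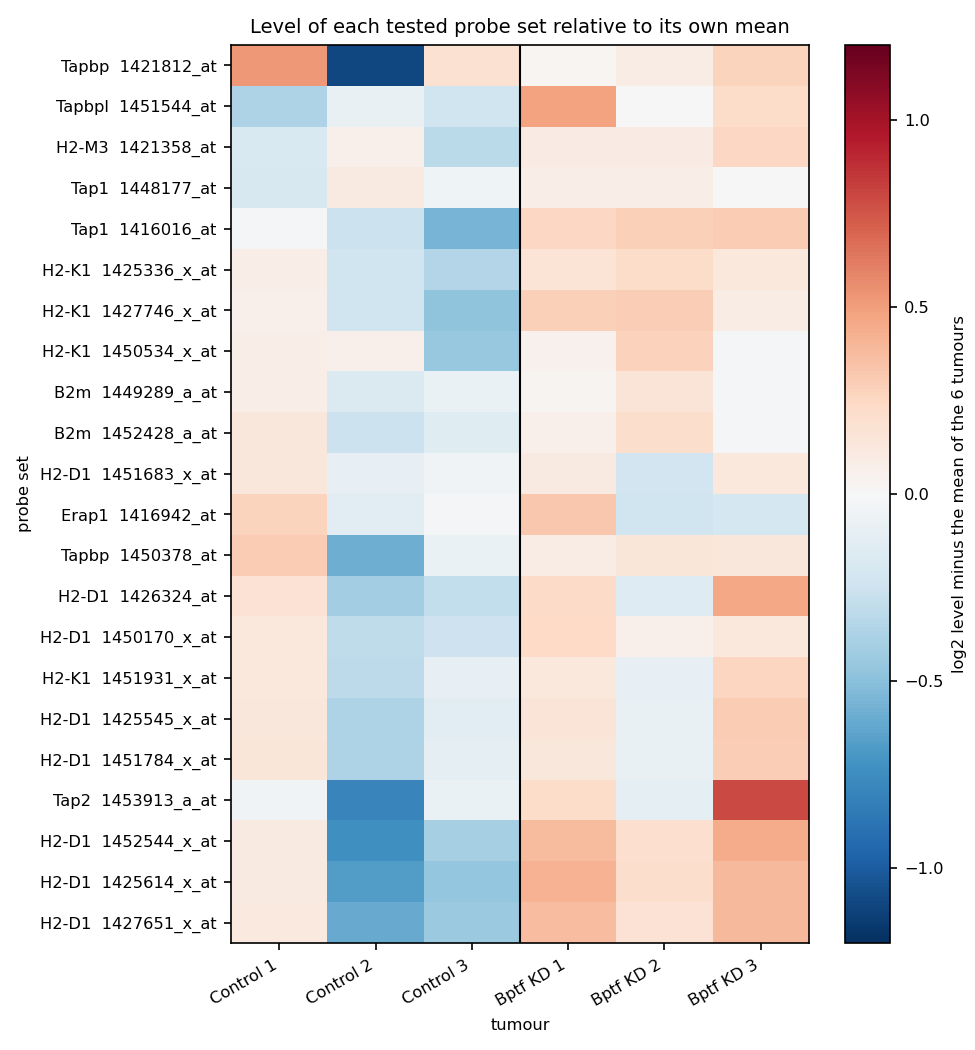
Level of each tested probe set in each tumour, relative to the mean of that probe set over the 6 tumours (colour, log2 units), with probe sets ordered by likeness. Control 1 is mostly above the mean, the tumour labelled Control 2 and control 3 mostly below it, and H2-K1 1451931_x_at stands beside the bright H2-D1 probe sets.

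How alike probe sets were was read as the mean absolute difference between their levels over the 6 tumours, after each had been centred on its own mean. The 2 bright H2-D1 probe sets were nearest of all, at 0.0078 log2 units. The next nearest pair joined H2-K1 1451931_x_at to H2-D1 1451784_x_at, at 0.026, nearer than any other H2-K1 probe set came to a probe set of its own gene (0.066 at the closest). By its values in these tumours, then, 1451931_x_at followed the H2-D1 probe sets, although the annotation names only H2-K1. The 3 H2-D1 probe sets with differences of 0.63 to 0.68 lay within 0.029 to 0.043 of each other. The gap between their mean and that of the 2 bright ones was -0.82, -1.08 and -1.10 in controls 1, 2 and 3 and -0.54, -0.50 and -0.67 in the Bptf KD tumours, so the H2-D1 probe sets differed unequally between the groups. Both sets of probe sets were chosen for this after their values were seen, and the gap was not tested. Of the 13 probe sets annotated to H2-K1 or H2-D1, 11 carry the suffix _x_at, with which the manufacturer marks probe sets that may also bind other transcripts, against 6.68% of all probe sets. Signal of either gene, of their relatives and of the alleles of tumour and host can therefore mix, and a level given for H2-K1 or H2-D1 is uncertain as to its gene. Their part in the unequal differences was not tested.

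H2-M3, which presents peptides that begin with N-formylmethionine, was measured by 1421358_at alone. It read 9.96, 10.20 and 9.82 in the controls and 10.24, 10.24 and 10.39 in the Bptf KD tumours. The groups did not overlap, by a margin of 0.04 between the tumour labelled Control 2 and Bptf KD 1 and 2. The difference was 0.30, or 1.23-fold (95% interval -0.03 to 0.62; limma adjusted p = 0.443). It was one of 3 tested probe sets in which the tumour labelled Control 2 was the highest control.

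Among the genes that bring peptides to class I, the pump subunits Tap1 and Tap2 had differences of 0.56 and 0.60, without overlap between the groups in Tap1 and with overlap in Tap2. Tap1 1416016_at read 8.54, 8.30 and 8.0 in the controls and 8.81, 8.85 and 8.86 in the Bptf KD tumours. Every Bptf KD tumour was higher than every control, and the SD was 0.03 in the Bptf KD group and 0.27 in the controls (n = 3 each). The level was 1.47-fold higher (95% interval of the log2 difference 0.19 to 0.93), with the lowest p of all the class I probe sets and an adjusted p of 0.228 in limma. A further probe set, 1448177_at, lay just above the dim level at 5.98, 6.28 and 6.12 against 6.25, 6.25 and 6.17, a difference of 0.10 with overlap. The remaining 2 Tap1 probe sets, 1449803_x_at and 1420274_at, at 3.67 to 4.68, were below the dim level and were not tested. Tap2 1453913_a_at read 8.03, 7.28 and 7.99 in the controls and 8.29, 7.96 and 8.86 in the Bptf KD tumours. Its groups overlapped, because Bptf KD 2 lay below controls 1 and 3, and its 95% interval ran from -0.10 to 1.30 (limma adjusted p = 0.471). The Tap2 difference became 0.36 without the tumour labelled Control 2 and 0.36 without Bptf KD 3.

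**Figure D4:**
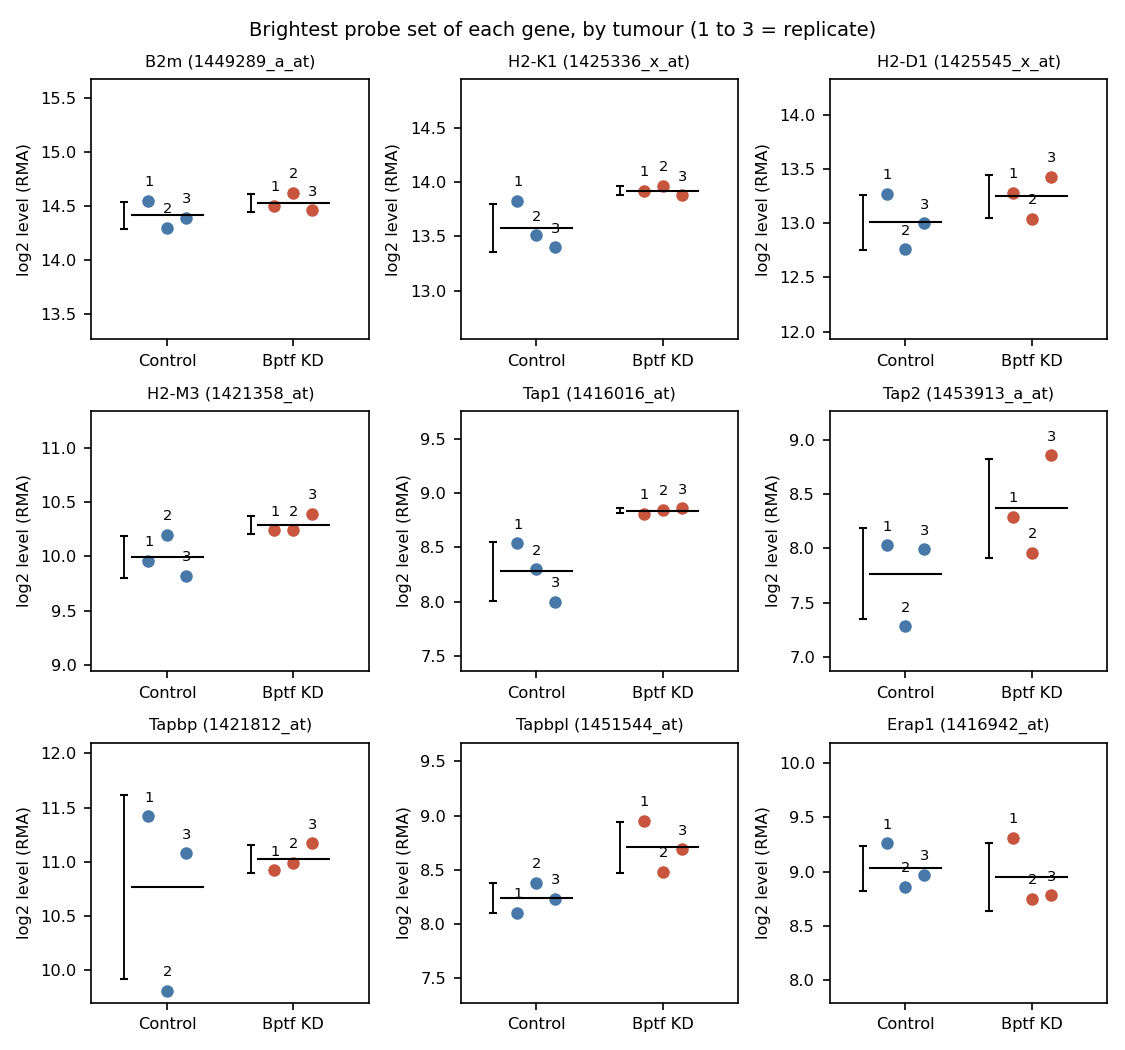
Log2 level (y axis, the same span in each panel) of the brightest probe set of each of the 9 genes in the control tumours (blue) and the Bptf KD tumours (red), numbered by replicate, with the group mean (line) and SD (bar, n = 3). H2-K1, H2-M3, Tap1 and Tapbpl show no overlap between the groups, while Tapbp has 1 control far below the other tumours.

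Of the peptide editors, Tapbpl showed no overlap between the groups on its tested probe set and Tapbp showed overlap. Whether the differences of these genes are unlike was not tested. Tapbpl 1451544_at read 8.10, 8.38 and 8.23 in the controls and 8.95, 8.48 and 8.69 in the Bptf KD tumours, without overlap. The difference was 0.47, or 1.39-fold (95% interval 0.09 to 0.85; limma adjusted p = 0.297). Its other probe set, 1424961_at, at 4.63 to 4.88, was below the dim level. Tapbp 1421812_at read 11.42, 9.81 and 11.08 in the controls and 10.92, 10.99 and 11.17 in the Bptf KD tumours. Control 1 was the highest of all and the tumour labelled Control 2 the lowest by more than 1 log2 unit, so its difference of 0.26 (SE 0.39) rested on that tumour. Without it the difference was -0.22. The second Tapbp probe set, 1450378_at, read 7.92, 7.03 and 7.54 against 7.71, 7.76 and 7.75, a difference of 0.24 that became 0.01 without the tumour labelled Control 2. Erap1 1416942_at was the one tested probe set with a negative difference, -0.08 (95% interval -0.55 to 0.38; limma adjusted p = 0.915). It read 9.26, 8.86 and 8.97 in the controls and 9.31, 8.75 and 8.78 in the Bptf KD tumours, with control 1 and Bptf KD 1 both high.

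The spread among controls had a common shape. Control 1 was the highest control in 19 of the 22 tested probe sets, against 33.3% of all probe sets tested, and the tumour labelled Control 2 was the lowest in 15, against 43.8%. Control 1 reached or passed the lowest Bptf KD tumour in 13 of the 22, control 3 in 5 and the tumour labelled Control 2 in 4. The median deviation from the mean of each probe set was 0.11 in control 1, -0.28 in the tumour labelled Control 2 and -0.19 in control 3, and 0.16, 0.10 and 0.23 in Bptf KD tumours 1, 2 and 3. By this summary control 1 lay above Bptf KD 2. Without the tumour labelled Control 2 the median difference of the 22 probe sets was 0.22, beside 0.03 over all probe sets tested, and 19 of the 22 were positive. The groups then did not overlap in 9 (40.9%), against 25.9% of all probe sets, 7 were higher at an unadjusted p under 0.05, against 14.6%, and limma called 0 (lowest adjusted p = 0.0960), where 1.38% of all probe sets were called higher. Without control 1 the median was 0.41 and the groups did not overlap in 15 (68.2%), against 18.0% of all probe sets, with 0 called higher by limma, against 0.101%, and 9 higher before adjustment (p under 0.05), against 7.29%. That tumour was the highest control for most of these probe sets, so leaving it out favours a larger difference. With array weights, which gave the tumour labelled Control 2 a weight of 0.15 and control 3 one of 4.07, limma called 8 of the 22 higher (36.4%), against 9.41% of all probe sets, after a warning that the weights had not converged. These 8 were the 8 whose groups did not overlap.

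Other genes of the pathway were read through the brightest probe set of each, from lists set down with earlier results of these data known. The subunits of the immunoproteasome replace those of the standard proteasome under interferon and favour peptides that fit class I. The list of the immunoproteasome and its activator had the largest median difference of these lists. All 4 measured genes of the list of 5 lay higher in every Bptf KD tumour than in every control, against 11.6% of all probe sets, and their median difference was 0.68. Psmb9 read 10.30, 10.38 and 9.78 in the controls and 11.17, 11.11 and 10.99 in the Bptf KD tumours, a difference of 0.94 (limma adjusted p = 0.108). The lowest Bptf KD tumour lay above the highest control, and this is the gene that shares its upstream stretch with Tap1. Psmb8 differed by 0.71, the proteasome activator subunit Psme1 by 0.65 and Psmb10 by 0.29 (limma adjusted p = 0.189, 0.152 and 0.476). Limma called 0 of the 4, and the unadjusted p of 3, all higher, was under 0.05, against 7.27% of all probe sets. The 3 catalytic subunits of the standard proteasome, Psmb5, Psmb6 and Psmb7, differed by 0.30, 0.14 and -0.03, with overlapping groups.

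The chaperones and peptidases of the route differed less. Of 6 chaperones of the endoplasmic reticulum, 3 were positive, against 59.1% of all probe sets tested, with a median of 0.11. The disulfide isomerase Pdia4 differed by 0.32 without overlap (limma adjusted p = 0.338), Pdia3, which works within the loading complex, by 0.35 with overlap, and Hspa5 by 0.23. Hsp90b1 differed by -0.09 and lay lower in every Bptf KD tumour than in every control (limma adjusted p = 0.807). The loading complex chaperone Calr and its relative Canx differed by -0.06 and -0.02. Of 7 peptidases 6 were positive, against the same 59.1%, with a median of 0.14, and the groups of all 7 overlapped. Blmh differed by 0.49, Lap3 by 0.19 and Rnpep by 0.14. Limma called 0 of these 13 genes, where 0.253% of all probe sets were called. Before adjustment 1 of the 13 (Pdia4, higher) had a p under 0.05, near the 7.27% of all probe sets that were higher.

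Not all class I-like molecules went the same way. Of the 7 tested genes that encode other non-classical or class I-like chains, 4 were positive, with a median of 0.02. Of all probe sets tested, 59.1% were positive. Fcgrt, the neonatal Fc receptor, which binds antibodies and albumin and presents no peptide, read 10.27, 10.65 and 10.05 in the controls and 9.38, 9.75 and 9.48 in the Bptf KD tumours. It was lower in every Bptf KD tumour, by a difference of -0.79 (SE 0.19; limma adjusted p = 0.168). Mr1, which presents vitamin metabolites, differed by 0.17 without overlap, and H2-Q5 by 0.30 with overlap. A further 6 were below the dim level. Of the 10 tested regulators of class I, 9 were positive, against the same 59.1%, with a median of 0.21. Jak2, a kinase of the interferon gamma receptor, read 10.77, 10.16 and 10.54 in the controls and 11.54, 10.99 and 11.25 in the Bptf KD tumours, a difference of 0.77 without overlap (limma adjusted p = 0.219). The transcription factor Irf1 differed by 0.34 and the receptor chain Ifngr2 by 0.48, both with overlap. Limma called 0 of these 17 genes, and before adjustment Jak2, higher, and Fcgrt, lower, had a p under 0.05. With 1 of 17 in each direction, this is near the 7.27% higher and 5.32% lower of all probe sets.

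**Figure D5:**
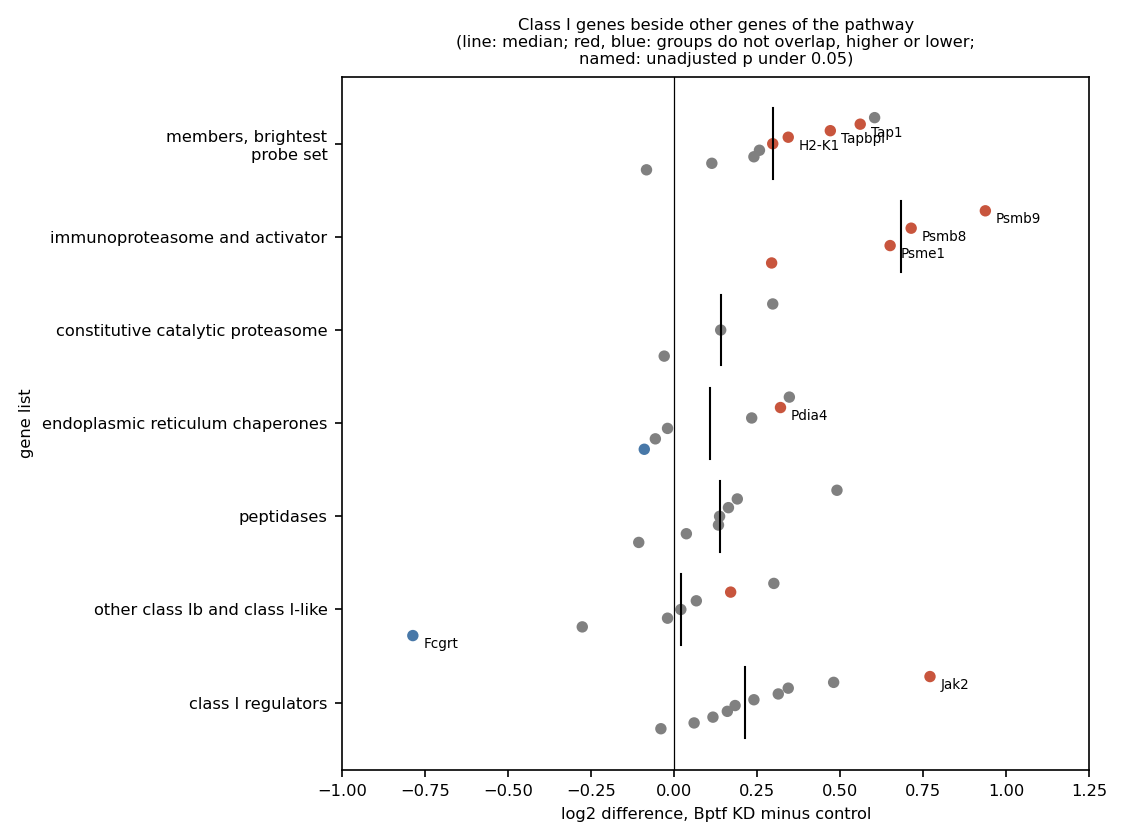
Difference between Bptf KD and control tumours (x axis, log2) of the brightest probe set of the 9 class I genes and of each gene in 6 other lists (y axis), with the list median as a line. All 4 immunoproteasome genes lie at or above 0.29, while Fcgrt, at -0.79, is the lowest gene plotted.

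Some cell type markers also differed between the groups. Epithelial markers, which 4T1 cells express, had a mean over 10 genes between 9.82 and 10.6 in controls and between 10.7 and 10.8 in Bptf KD tumours, with 9 of 10 higher in Bptf KD. Control 1, the control with the highest class I levels, had the lowest epithelial mean. Fibroblast markers ran from 11.5 to 11.8 in controls and from 10.3 to 10.6 in Bptf KD tumours, with 0 of 10 higher, and adipocyte markers from 9.51 to 10.4 and 6.65 to 7.73, with 0 of 8 higher. In whole tumours, fewer cells of a type and less RNA per cell cannot be told apart. The mean of the macrophage markers overlapped between the groups, at 11.7 to 11.9 and 11.5 to 11.8, with 6 of 9 higher in Bptf KD, but single markers parted both ways. The complement genes C1qa, C1qb and C1qc were higher in every Bptf KD tumour than in every control, and the surface receptors Mrc1 and Cd163 were lower in every one. The means also overlapped for neutrophil markers, at 6.67 to 7.36 and 6.99 to 7.19, with 5 of 8 higher, and for endothelial markers, at 7.56 to 7.97 and 7.56 to 7.63, with 6 of 10 higher. Dendritic cell markers were at 7.73 to 7.82 in controls and at 7.42 to 7.59 with Bptf KD, with 3 of 9 higher. The T, B and natural killer markers had means of 5.58 to 5.69 and 5.58 to 5.61, below the dim level, with 4 of 8 higher. Of these markers Cd3g, Cd79a, Ms4a1 and Ncr1 were dim. The other 4, Cd3e, Cd3d, Cd4 and Cd8a, had means above the dim level, with Cd4 at 7.0 to 7.35 and Cd3e at 6.41 to 6.92 over the 6 tumours. The part of these cell types in the class I levels was not tested.

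The genes outside the class I list whose levels followed those of the brightest Tap1 probe set most closely over the 6 tumours were Zup1, Dusp16 and Kifap3, with mean absolute differences of the centred levels of 0.066, 0.068 and 0.070 log2 units, among 6273 genes whose SD was at least that of Tap1 divided by 2. For H2-K1 they were Tgfbr1, a receptor chain for TGF-beta, at 0.028, Lpin2 at 0.030 and Cttnbp2nl at 0.035, among 8052 genes. Tgfbr1 read 12.09, 11.86 and 11.74 in the controls and 12.30, 12.34 and 12.23 in the Bptf KD tumours, the same order of controls as H2-K1. Likeness over 6 tumours, picked from so many genes, describes these arrays only.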

How the data were processed

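RNA of 3 Control and 3 Bptf KD tumours was hybridised to 1 array each, from 500 ng of total RNA per the labels' protocols. The authors deposited log2 levels made with RMA, per the submitters' processing notes (no version given). The log base was taken as 2 because values ran from 2.98 to 15.17. RMA gives no detection call. Necrotic tissue was cut away before extraction, per the labels' protocols. Of 22690 probe sets, 64 manufacturer's controls were left out. The platform annotation gave 1 gene for 20380, several for 691 and none for 1555. Symbols were matched by Entrez identifier to RefSeq (GRCm38.p6), where 0 changed and 29 had no match.

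Probe sets whose mean over the 6 arrays lay in the lowest 30% (below 6.09) were not tested. The remaining 15838 were fitted by probe set with lmFit and eBayes of limma 3.58.1 (R 4.3.3), with group as the only term, two-sided, with Benjamini-Hochberg adjustment over all of them and a threshold of 0.05. Every adjusted p-value comes from limma. The procedure was tested on simulated data with planted differences larger than any class I difference seen here and with no outlying tumour. That test does not show whether differences of the size seen here would be called. No source used here says whether tumours came from separate mice, so p-values measure the spread between these tumours. Same-numbered tumours were not treated as pairs.

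The genes, the lists and the tests were chosen with earlier results of these data known. All probe sets of the listed genes are named, as are Bptf, Psmb8, Psmb9, Psmb10, up to 3 genes of each other list with the smallest p, and the 3 genes most like Tap1 and H2-K1. Calr, Canx, Hsp90b1, Psmb5, Psmb6, Psmb7 and the markers were named beyond this rule after their values were seen. Tap2 and Tapbpl had no entry in the promoter table used. Alternatives were no filter, a stricter filter (50%), the brightest probe set or the mean per gene, centring each array on its median, quantile normalising again, a trended and robust eBayes, array weights, blocking on the replicate number, and leaving out each tumour.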

Additional observations from a re-analysis of the deposited data

How the results depend on the processing

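Over 15 alternatives, the median difference of the class I probe sets stayed positive, between 0.22 and 0.41. Limma called 0 of them in every alternative except array weights, which called 8. The count of calls over all probe sets was 40, and it became 75 with the brightest probe set per gene, 76 with the mean per gene, 2623 with array weights and 98 with the replicate number as a block. Leaving out each tumour in turn gave 0 to 519 calls, with 519 without the tumour labelled Control 2, 77 without control 1, 8 without control 3, 10 without Bptf KD 2, and 0 without Bptf KD 1 or Bptf KD 3, where 1463 and 1202 probe sets had an unadjusted limma p under 0.05. The 7 class I probe sets higher at an unadjusted p under 0.05 (7.27% of all tested) became 3 of 9 genes with the brightest probe set (7.65% of all), 1 of 8 with the mean (7.70%) and 11 with array weights (20.3%), and 1 to 9 on leaving out each tumour (1 without control 3 or Bptf KD 1, 3 without Bptf KD 3), where the share of all ran from 3.97% to 14.6%. The 8 without overlap (11.6% of all tested) became 4 of 9 genes (11.8% of all), 3 of 8 genes (12.3%), and 8 to 15 on leaving out each tumour, where the share of all ran from 14.5% to 25.9%. Gene-level settings hold fewer members. The mean per gene also takes in dim probe sets, as for Tapbpl, and it left Tap1 below the dim level and untested.

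Bptf passed with array weights (-0.88, limma adjusted p = 0.00956) and ranged from -0.92 to -0.46 on leaving out each tumour, past the threshold without the tumour labelled Control 2 (limma adjusted p = 0.0353, within 0.00956 to 0.758 over the 15 alternatives). Of 22 probe sets, 3 changed sign in at least 1 alternative. H2-D1 1451683_x_at turned to -0.01 with median centring, -0.018 with a second quantile normalisation and ran from -0.06 to 0.12 on leaving out each tumour. Tapbp 1421812_at turned to -0.088 with array weights and ran from -0.22 to 0.58 on leaving out each tumour. Erap1 turned to 0.031 with array weights and ran from -0.27 to 0.032. The causes of these changes were not tested.

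The replicate numbers were not taken as pairs. Across probe sets, the deviations of same-numbered tumours correlated at 0.05, 0.36 and 0.38 for numbers 1, 2 and 3. Those of control 1 and Bptf KD 3, which differ in number, correlated at 0.32. These values therefore do not settle whether the numbers mark pairs. With the replicate block, 0 of 22 class I probe sets were called, where 11 of all 15838 were called higher and 87 lower. Before adjustment 7 of the 22, all higher, had a limma p under 0.05, where 8.50% of all probe sets were higher.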
